A study of Oryza sativa with 12 samples.

Results

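The regions described here are stretches of the rice genome over which the histone variant H2A.Z was called in wild-type and mutant seedlings alike, but over a longer stretch in the mutant. Peaks of the 4 H2A.Z libraries were merged into 53017 regions, of which 38145 held a peak in all 4 libraries. A region was selected on its covered length, the number of bases inside called peaks in a library. The shorter of the 2 oschz1 values had to exceed the longer of the 2 NIP values by at least 400 bp. This was met by 1659 regions, or 4.35% of those with a peak in every library, and they are called extended regions below.

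The study used chromatin immunoprecipitation and sequencing (ChIP-seq) on 30-day-old long-day seedlings of oschz1 and of NIP. NIP is the wild-type cultivar Nipponbare, and oschz1 carries no functional OsChz1, a histone chaperone gene. The study's methods describe a mutant line made by CRISPR/Cas9 editing, with a single-base deletion that ends the reading frame early and free of the editing transgene, so that the mutant group is a single line. Each genotype had 2 H2A.Z libraries, 2 libraries of the core histone H3 and 2 inputs, 12 samples in all, and the labels name no treatment. Whole seedlings mix many cell types, and fewer cells with H2A.Z at a site cannot be told apart from less H2A.Z per cell. Reads in peaks of the H2A.Z libraries numbered 20072324 and 18569241 in oschz1, against 22192417 and 16886473 in NIP. In the H3 libraries they numbered 14466571 and 9179714 in oschz1, against 13961812 and 9985812 in NIP. All positions are on the MSU7 rice assembly and count from 1. Genes, strand and sequence at these positions were not analysed here.

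H2A.Z replaces the canonical histone H2A in a fraction of nucleosomes. In plants it is enriched in the nucleosomes just after transcription start sites, and it also spreads over the bodies of genes that are responsive or weakly transcribed. Histone chaperones bind H2A-H2B and H2A.Z-H2B dimers and hand them to the complexes that place them in chromatin. A peak caller for broad marks such as SICER divides the genome into windows, keeps those with more ChIP reads than chance gives and joins neighbouring ones, so that a region grows window by window. The windows here were 200 bp wide, and peaks of the same library lay at least 400 bp apart. A difference of 400 bp is therefore also the smallest gap between peaks that can close.

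The margin, by which the shorter oschz1 value exceeded the longer NIP value, was 400 bp in 796 of the 1659 extended regions and 400 or 600 bp in 1185 (71.4%). It reached 1000 bp in 286 regions (17.2%) and 2000 bp in 37. Just outside the threshold, another 2649 regions had a margin of 200 bp. The same rule with the genotypes exchanged gave 491 regions that were shorter in oschz1, with 1439 just outside it. Margins in that direction ended at 1600 bp, while those of extended regions reached 4800 bp. These counts follow from the values that chose the regions and are given as a description, with no test.

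**Figure D1:**
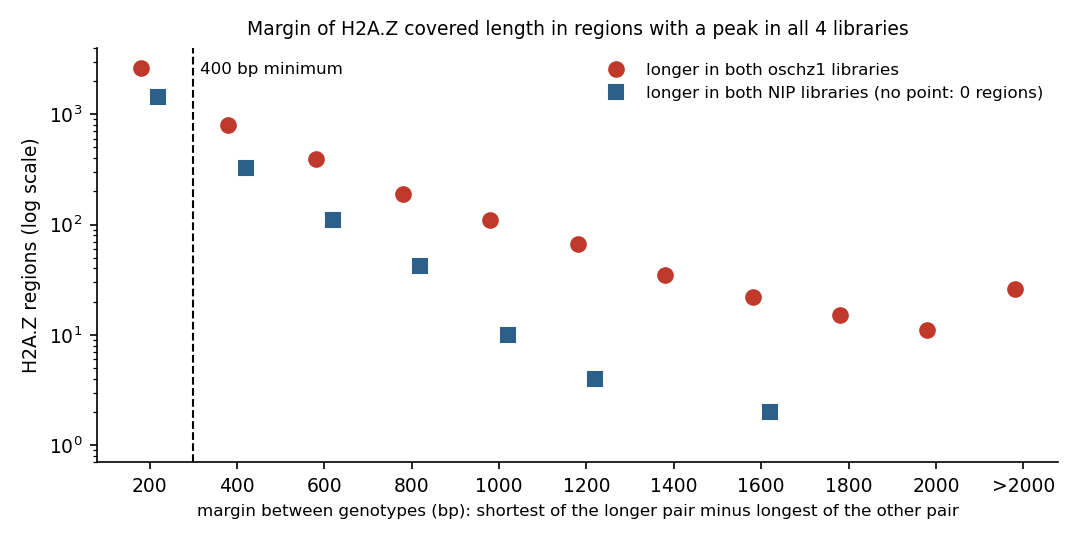
Number of H2A.Z regions (log axis) at each margin in bp, with regions longer in both oschz1 libraries as circles and regions longer in both NIP libraries as squares. The dashed line marks the 400 bp minimum, where 796 regions were longer in oschz1 and 324 in NIP, and the squares end at 1600 bp.

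Extended regions covered 4.85 and 4.83 Mb in the oschz1 libraries, against 3.39 and 3.34 Mb in the NIP libraries. The added length averaged 1.47 Mb, or 43.7% of the NIP length. Over all 38145 regions the net addition was 2.48 Mb, and the length added in extended regions equalled 59.3% of that. The total is net of losses in other regions, while the rule chose these for gain, so the percentage is only a description. A typical extended region was covered over 2400 bp in each oschz1 library and over 1600 bp in each NIP library, whereas the median over all regions was 1200 bp in all 4 libraries. In 357 extended regions (21.5%) the oschz1 length was at least 2 times the NIP length. Of the bases covered in either library of a genotype, 87.8% were covered in both oschz1 libraries and 82.4% in both NIP libraries, while over all regions both shares were 85.2% and 85.3%.

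Growth was mostly at a single side of the region. A base counted as gained when both oschz1 libraries covered it and neither NIP library did, and as lying in a gap when NIP peaks stood on both sides of it. Growth at 1 edge only was found in 1013 extended regions (61.1%, exact binomial 95% interval 58.7% to 63.4%). The edge was the one with lower coordinates in 493 of them and the one with higher coordinates in 520. Both edges grew in 129 regions (7.78%). A gap was filled without edge growth in 317 regions (19.1%), with growth at 1 edge in 100 (6.03%) and with growth at both in 7. The remaining 93 regions (5.61%) had no gained base by this definition. When a base only had to be missing from either NIP library, 11 regions had none and 54.5% grew at 1 edge only. The intervals cover counting error only. They treat regions as independent, although all come from the same libraries, and leave out the spread between replicates and the choice of definition.

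**Figure D2:**
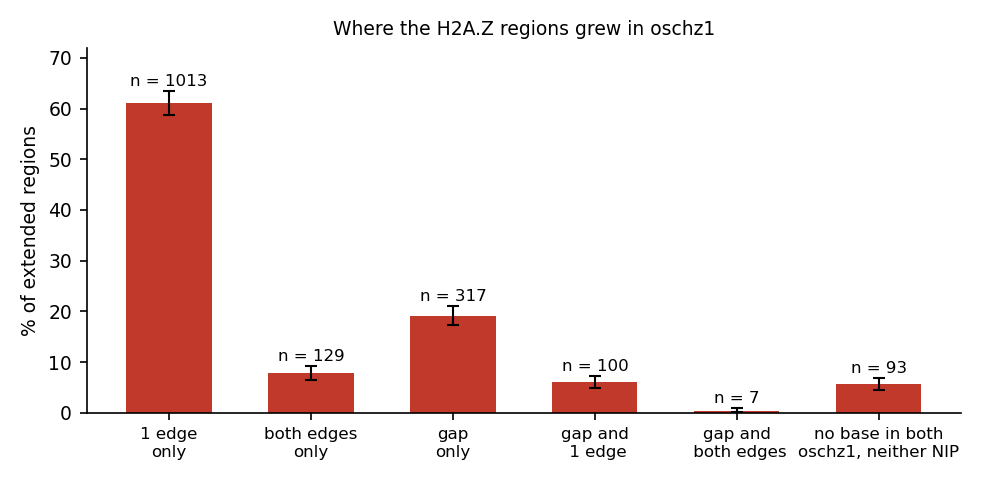
Share of the 1659 extended regions in each class of growth (bars, in %), with exact binomial 95% intervals (lines) and the number of regions above each bar. Growth at 1 edge only made up 61.1%, and a filled gap without edge growth 19.1%. The lines cover counting error only, not the spread between libraries.

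Regions with a filled gap started out longer. Their median NIP length was 2400 bp for gap-only growth, against 1300 bp both for regions with growth at 1 edge and for those with growth at both edges. The corresponding oschz1 medians were 3400 bp, 2100 bp and 2200 bp. In all, 338 gaps were closed from end to end, 212 of them (62.7%) being 400 bp long, the shortest gap found between peaks, and 52 being 600 bp long. The longest closed gap measured 4000 bp. Both NIP libraries had at least 2 peaks in 400 extended regions (24.1%), whereas this held for 4.45% of all regions. In 201 extended regions such a split NIP region was a single peak in both oschz1 libraries. Over all 38145 regions that pattern occurred 408 times, and the opposite one, a single NIP peak split in both oschz1 libraries, occurred 236 times. Covered length leaves out the gaps between peaks, and a filled gap needs NIP peaks on both sides. These lengths and counts are therefore tied to the values that chose the regions and are given as a description.

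The clearest example of growth at 1 edge was also the region with the largest margin. On chromosome 6, from 7196401 to 7202600, peaks covered 6200 and 5800 bp in oschz1, against 1000 bp in each NIP library. Both NIP peaks sat in the last 1000 bp of the region, and the first 4800 bp were covered in both oschz1 libraries and in neither NIP library. The 400 bp between were covered in oschz1 replicate 1 only. The region held 1319 and 1379 reads in oschz1, against 250 and 191 reads in NIP. Reads per covered kb, scaled to 1000000 reads in all peaks of the library (RPM per kb), were 10.6 and 12.8 in oschz1, against 11.3 and 11.3 in NIP. The 2 genotypes thus overlapped in density while they differed about 6-fold in length.

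Growth at the other edge was seen on chromosome 6 from 25783601 to 25792000, where peaks covered 7400 and 8000 bp in oschz1, against 3200 and 3000 bp in NIP. Here 3800 bp were gained at the edge with higher coordinates, and each oschz1 library had a second peak there. Read density was 22.01 and 20.79 RPM per kb in oschz1, against 21.92 and 23.27 RPM per kb in NIP. On chromosome 2, from 35497201 to 35501400, 4000 bp were covered in each oschz1 library, against 600 bp in each NIP library, all of the gain again being on the higher side. On chromosome 12, from 24865601 to 24872200, 6600 and 5800 bp were covered in oschz1, against 1800 and 2200 bp in NIP, with 4000 bp gained on the lower side.

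The longest closed gap lay on chromosome 4, from 20713201 to 20725600. Each oschz1 library had 1 peak there, of 12200 and 12400 bp. The NIP libraries had 3 and 2 peaks, together covering 6600 and 8400 bp, and 4000 bp between them were covered in neither. ChIP reads numbered 2915 and 2818 in oschz1, against 1851 and 1614 in NIP. Density was 11.9 and 12.2 RPM per kb in oschz1, against 12.6 and 11.4 RPM per kb in NIP, so that the genotypes overlapped. On chromosome 1, from 28734201 to 28739200, 3400 bp were gained between a pair of NIP peaks of 600 bp each. One of those flanking peaks was called in NIP replicate 2 only, so that the gap rests on that library. On chromosome 2, from 12978001 to 12985600, a gap gain of 3400 bp was found, and peaks covered 7200 and 7600 bp in oschz1, against 3800 and 3600 bp in NIP.

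Growth at both edges was largest on chromosome 8, from 4454601 to 4461400. A single peak covered 6800 bp in each oschz1 library, against 3200 and 2800 bp in NIP, with 1800 bp gained on either side. Its density was 14.1 and 13.5 RPM per kb in oschz1, against 10.7 and 10.6 RPM per kb in NIP, and both oschz1 libraries lay above both NIP libraries. A gap and both edges grew together on chromosome 11, from 5024401 to 5029600, where 4800 and 5200 bp were covered in oschz1, against 1800 and 1400 bp in NIP. A gap of 1400 bp and an edge of 1600 bp were gained on chromosome 5, from 26471801 to 26478000, where the NIP peak beyond the gap was called in NIP replicate 2 only. That region was covered over 6200 bp in each oschz1 library, against 2000 and 3200 bp in NIP.

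**Figure D3:**
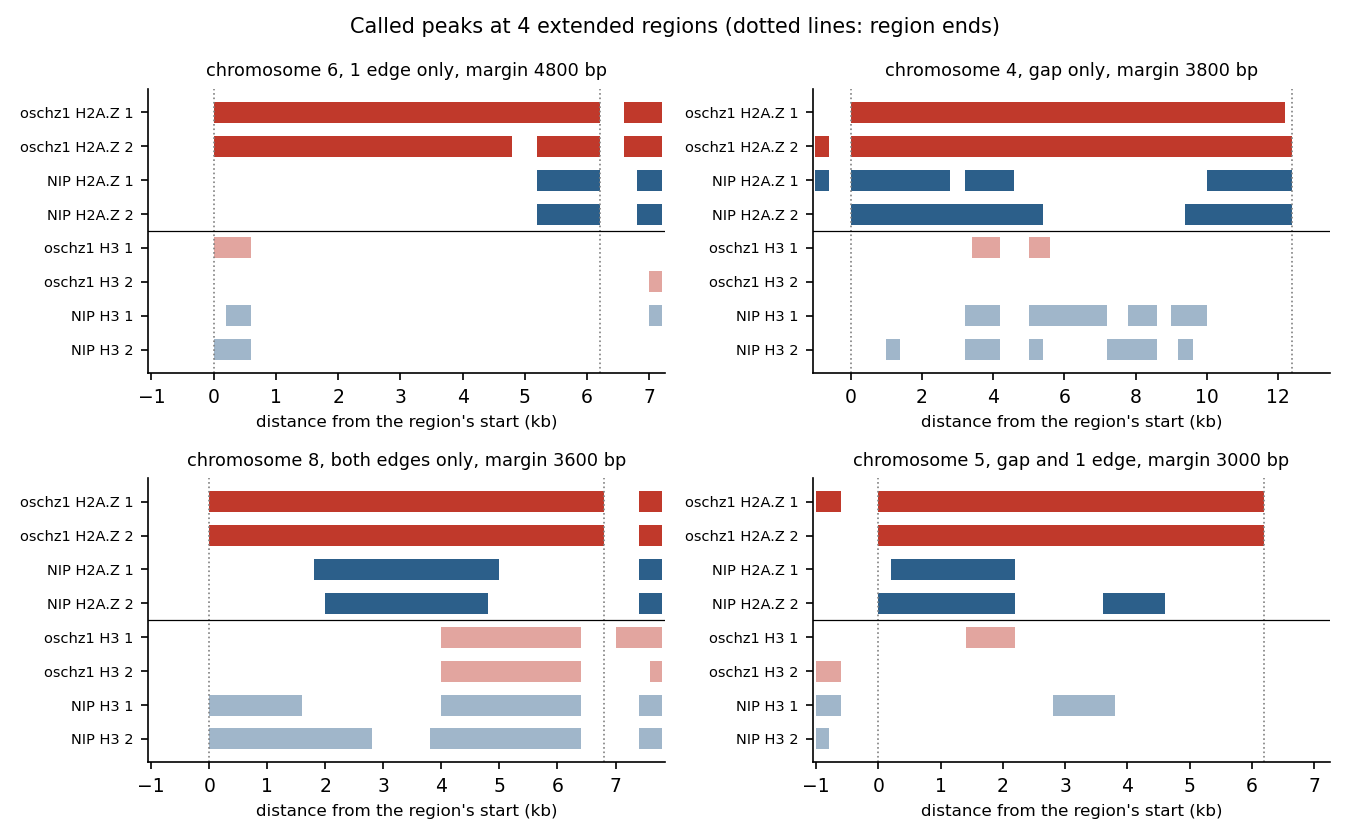
Called peaks (bars) at 4 extended regions along the distance from the region's start in kb, with H2A.Z libraries above the line and H3 libraries below it, oschz1 in red above NIP in blue within each antibody. The regions show growth at 1 edge (margin 4800 bp), a closed gap (3800 bp), growth at both edges (3600 bp) and a gap with 1 edge (3000 bp).

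The other named regions had the same kinds of layout at smaller margins. Both edges grew on chromosome 2 from 32582401 to 32588200, with 5600 and 5800 bp in oschz1, against 3200 and 2400 bp in NIP, and on chromosome 9 from 731601 to 735200, with 3600 bp in each oschz1 library, against 1400 and 1200 bp in NIP. A gap and 1 edge grew on chromosome 3 from 1165801 to 1171600 (margin 2400 bp) and on chromosome 8 from 27662601 to 27674400 (margin 2000 bp). The chromosome 8 region from 27662601 had 2 and 3 peaks in oschz1, against 6 and 5 in NIP. A gap and both edges grew on chromosome 6 from 25125001 to 25128600 and from 1345001 to 1350600, each with a margin of 1600 bp.

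Reads and length differed by unequal amounts. The median extended region had 29.1 and 29.2 RPM in the oschz1 libraries, against 21.8 and 21.7 RPM in the NIP libraries. On the log2 scale, the median difference between the oschz1 and the NIP mean was 0.59 in covered length and 0.35 in reads. Density was accordingly lower, at a median of 11.4 and 11.5 RPM per kb in oschz1, against 13.1 and 13.4 RPM per kb in NIP. Its median log2 difference was -0.21, while over all regions it was -0.05. Density was below both NIP values in both oschz1 libraries in 1135 extended regions (68.4%). The background for this over all regions was 29.7%. Length enters both the rule and the density, so this difference is a property of the selection and nothing is read from it. In the 491 regions shortened in oschz1 the median log2 difference in density had the other sign, at 0.21, so that in both sets the genotype with the longer peaks had the lower density.

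Net of all changes, the added length came with fewer reads per kb than NIP peaks had. For each kb added to the covered length, the oschz1 libraries had a net 8.04 RPM more, whereas the NIP libraries had 14.8 RPM per covered kb, a ratio of 0.545. As with density, length is part of the rule, so this ratio is a property of the selection and nothing is read from it. The tables hold no reads outside peaks, so the NIP level at the gained bases is unknown. The peaks of oschz1 inside extended regions that touched no NIP peak numbered 79 and 76 in the 2 libraries. Their median fold over input was 1.61 and 1.67, against 1.95 and 1.94 for all oschz1 peaks in these regions. They were picked by the absence of a NIP peak and were short, at a median of 800 bp in each library.

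Enrichment over input differed less than density. The median fold of ChIP over scaled input was 1.94 and 1.94 in oschz1, against 2.14 and 2.15 in NIP. Over all regions it was 2.09 and 2.07 in oschz1, against 2.21 and 2.21 in NIP, so that a lower fold in oschz1 was not limited to extended regions. The median log2 difference was -0.13 in extended regions and -0.09 in all regions. The fold was below both NIP values in both oschz1 libraries in 576 extended regions (34.7%), against a background of 26.6%. The input itself moved with the selection. Its median was 51.2 and 47.9 reads per covered kb in extended regions in oschz1, against 57.0 and 53.5 in all regions, and 56.1 and 45.0 in extended regions in NIP, against 57.9 and 47.5 in all regions. The part of the input in the growth of these regions was not tested.

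**Figure D4:**
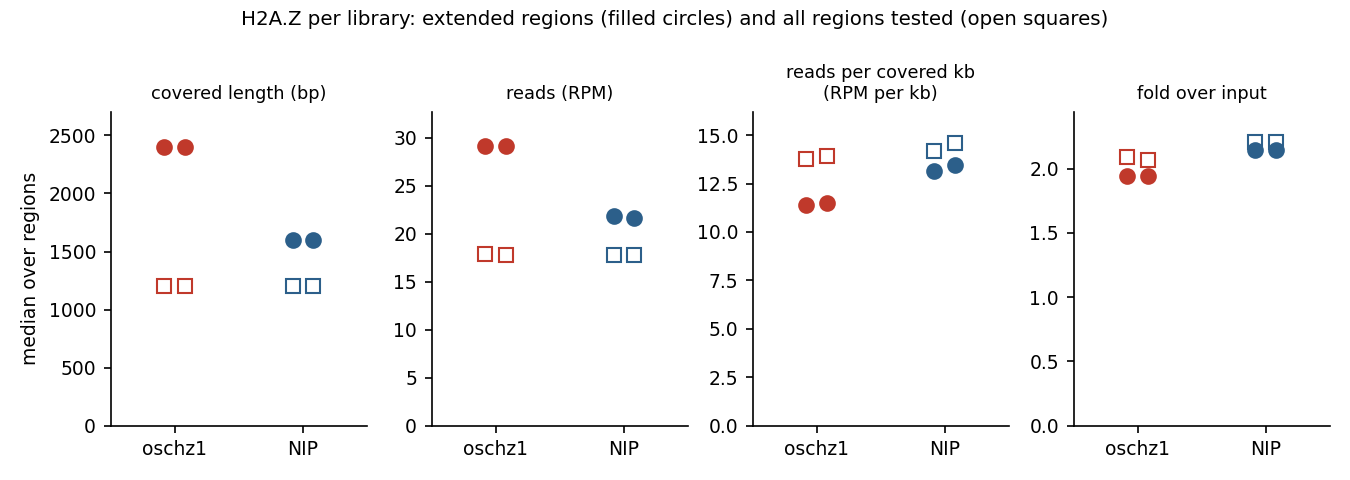
Median over regions of H2A.Z covered length (bp), reads (RPM), reads per covered kb (RPM per kb) and fold over input, each point being a library of oschz1 (red) or NIP (blue). In extended regions (filled circles) the oschz1 libraries lay higher in length (2400 against 1600 bp) and reads and lower in density and fold. All regions (open squares) had a median length of 1200 bp in every library.

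The classes of growth differed in how many reads came with the length. The median log2 difference in reads was 0.42 for growth at 1 edge, 0.59 for growth at both edges and 0.19 for gap-only growth. In covered length the same medians were 0.68, 0.74 and 0.41. Density was lower in every one of these classes, with medians of -0.23, -0.16 and -0.18. Of these 3 classes, gap-only regions had the smallest differences in length and in reads.

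Extended regions were found on all 12 chromosomes. Their share of the 38145 regions lay between 3.77% on chromosome 1 and 5.21% on chromosome 11. In steps of 20% of the chromosome length, taken up to the last H2A.Z peak, the share was 5.01%, 3.90%, 3.49%, 4.18% and 4.63%, lowest in the middle step. The median distance to the nearest other extended region was 61200 bp, and 225 (13.6%) had another within 10000 bp. Other H2A.Z regions were close by, at a median distance of 1000 bp, whereas over all regions this was 1200 bp. By length in NIP, the share was 3.46% below 600 bp, 2.88% from 600 to 1000 bp, 4.08% from 1000 to 2000 bp, 5.95% from 2000 to 4000 bp and 9.14% at 4000 bp and above. A fixed margin is a smaller fraction of a long region, and NIP length is part of the rule. When the regions were split into 5 equal groups of increasing NIP fold over input, the share was 4.63%, 4.69%, 5.07%, 4.17% and 3.19%, lowest for the most enriched regions. That fold is taken over the same NIP peaks whose length enters the rule, so these shares are a description too.

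H3 was then compared at the same places, to ask whether called H3 peaks differed where H2A.Z was extended. Cover by called peaks does not measure nucleosome content, and it gives no H3 level at bases without a peak. The H3 libraries did not enter the rule, but each shared its input with the H2A.Z library of the same genotype and replicate number. Peaks of identical coordinates in such a pair had the same input count in 100% of cases, so H3 is not fully independent of the selection. H3 peaks covered 1.1 and 0.967 Mb of the extended regions in oschz1, against 1.23 and 1.09 Mb in NIP. The values of the genotypes overlapped, and the mean difference of -0.123 Mb compares with a pooled SD of 0.0971 Mb between replicates (n = 2 each). The sign turned at 0.0054 Mb when only H3 peaks with a fold of at least 2 were used. H3 peaks were longer in both oschz1 libraries in 103 extended regions (6.21%), against a background of 7.27%, and shorter in both in 156 (9.40%), against a background of 7.04%. No H3 peak of any library reached 443 extended regions (26.7%), compared with 22.5% of all regions.

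By kind of base, a comparison that was not planned, H3 differed most in the filled gaps. H3 peaks covered 6.74% and 6.32% of the gained gap bases in oschz1, against 13.3% and 11.4% in NIP, or 6.53 ± 0.294% against 12.4 ± 1.35% (SD, n = 2 each). The genotypes did not overlap, and the difference was larger than the spread between replicates. At gained edges H3 cover was 13.4% and 11.8% in oschz1, against 14.6% and 15.7% in NIP, again without overlap. In the bases covered by H2A.Z in all 4 libraries it was 30.6% and 27.0% in oschz1, against 33.7% and 29.2% in NIP, where the genotypes overlapped. The 400 bp just outside the regions had 4.86% and 4.60% in oschz1, against 4.88% and 4.63% in NIP.

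Few regions carried the difference in the gaps. Of the 424 extended regions with a filled gap, 363 (85.6%) had no H3 peak of any library in it. H3 covered less of the gap in both oschz1 libraries in 15 regions and more in 3, which lay on chromosome 1 from 10987601 to 10992000, on chromosome 2 from 12978001 to 12985600 and on chromosome 4 from 31432001 to 31436200 and were picked after their values were seen. The largest single part came from the region on chromosome 4 from 20713201, where H3 covered 200 and 0 bp of the 4000-bp gap in oschz1, against 3000 and 1600 bp in NIP. Without that region the shares were 6.77% and 6.43% in oschz1, against 12.3% and 10.9% in NIP. With a stricter H3 false discovery rate of 1e-10 they were 2.00% and 1.25% in oschz1, against 5.66% and 4.49% in NIP. With a fold of at least 2 almost no H3 peak was left, and the genotypes overlapped. At gained edges the genotypes overlapped in both settings, at 4.29% and 2.93% in oschz1, against 5.85% and 4.18% in NIP, with the stricter false discovery rate, and at 0.359% and 1.08% in oschz1, against 0.898% and 0.693% in NIP, with the fold of at least 2. There, 31 of 1249 regions had less H3 cover in both oschz1 libraries and 27 had more. Counts of regions with less or more H3 cover, in gaps and at edges, were made for extended regions only. They have no background over all regions, and nothing particular to extended regions is read from them.

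The same kinds of base were compared in other regions. In the regions that were not extended, 0.163 Mb of gap bases were gained, against 0.24 Mb in extended regions. H3 covered 1.84% and 1.60% of them in oschz1, against 3.44% and 1.97% in NIP, again without overlap of the genotypes. The difference of -0.983 percentage points was smaller than the NIP SD of 1.04. The ratio of oschz1 to NIP cover was 0.636 in these gaps and 0.529 in the gaps of extended regions. Lower H3 cover in gained gaps was thus not limited to extended regions. At the gained edges of regions that were not extended, the genotypes overlapped. H3 cover there was 9.37% and 9.01% in oschz1, against 11.8% and 9.31% in NIP. In the regions shortened in oschz1, bases that both NIP libraries covered and neither oschz1 library did had an H3 cover of 13.0% and 12.0% in oschz1, against 8.87% and 9.05% in NIP. Over all regions that were not extended, shortened ones included, such bases had an H3 cover of 11.9% and 10.2% in oschz1, against 8.43% and 7.51% in NIP. H3 cover was thus higher in the genotype without an H2A.Z peak at those bases, and this was not particular to extended or shortened regions.

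**Figure D5:**
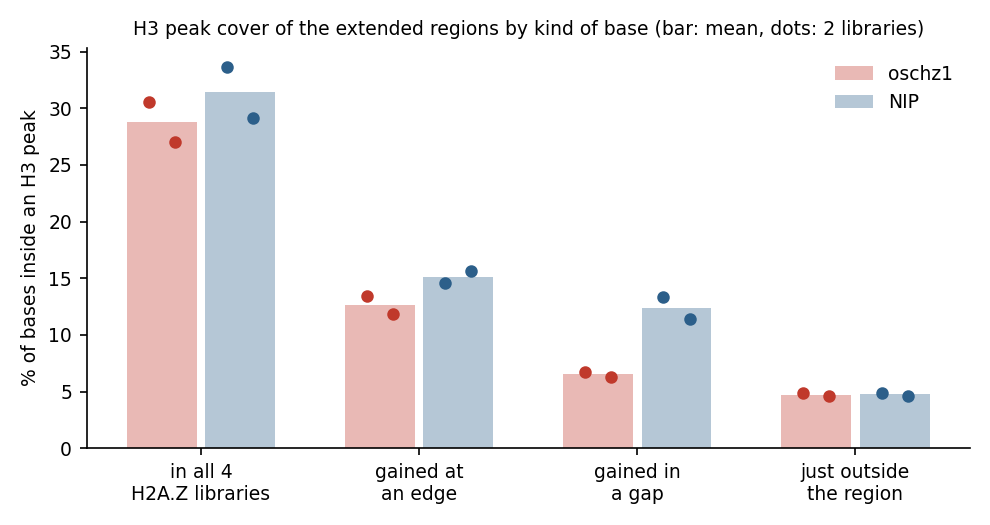
Percentage of bases inside an H3 peak for the bases of extended regions covered by H2A.Z in all 4 libraries, gained at an edge, gained in a gap, or lying just outside, with oschz1 in red and NIP in blue (bars, means; points, the 2 libraries). In gained gaps the oschz1 libraries lay at 6.74% and 6.32%, below the NIP libraries at 13.3% and 11.4%.

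Among the named regions, H3 moved either way. In the chromosome 8 region from 4454601 that grew at both edges, H3 peaks covered 2400 bp in each oschz1 library, against 4000 and 5400 bp in NIP. In the chromosome 4 region with the longest closed gap they covered 1400 and 0 bp in oschz1, against 5000 and 3600 bp in NIP. The chromosome 11 region from 5024401 showed the opposite, with 2000 and 1800 bp in oschz1, against 200 and 0 bp in NIP. In the chromosome 6 region from 25783601 the genotypes overlapped, at 5600 and 6400 bp in oschz1 and 5600 and 6000 bp in NIP. The chromosome 1 region from 28734201 had no H3 peak in any library.

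H3 reads were tested with the quasi-likelihood test of edgeR over the 25169 H3 regions that had a peak in all 4 H3 libraries. Of these, 477 lay at an extended region, and they met 438 (26.4%) of the extended regions, so that the other extended regions were outside the test. None of the 477 passed an adjusted p of 0.05, and neither did any other H3 region (0% of all tested). At an unadjusted p under 0.05, 41 of the 477 were higher in oschz1, against a background of 6.1%, and 15 were lower, against 2.05%. This split depended on scaling, being 27 higher and 23 lower with TMM factors, against backgrounds of 4.47% and 3.37%. DESeq2 called 3 higher and 4 lower at an adjusted p of 0.05, and 98 (0.389%) higher and 76 (0.302%) lower over all 25169. In the 166 H3 regions at extended regions of which the libraries shared at least 80%, edgeR called 4 higher and 1 lower at an adjusted p of 0.05, against 61 (0.737%) and 3 (0.0362%) of all 8278 such regions. Those that DESeq2 called higher began at 2757801 on chromosome 1, 23024401 on chromosome 2 and 4963601 on chromosome 11. Those it called lower began at 341601 on chromosome 2, 1423201 on chromosome 3, 17228001 on chromosome 6 and 11545401 on chromosome 10. The median log2 difference at extended regions was 0.05, while over all H3 regions it was 0.06.

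The lowest adjusted p at an extended region belonged to an H3 region on chromosome 3, from 1423201 to 1428800. It had 31.9 and 31.6 RPM in oschz1, against 84.2 and 88.6 RPM in NIP, and its H3 peaks covered 1800 and 1000 bp in oschz1, against 5200 and 5000 bp in NIP. The log2 difference was -1.44 (SE 0.12), with an edgeR adjusted p of 0.151. It was also among the regions that DESeq2 called, and all of these were singled out after their values were seen. As for H2A.Z, reads of a library cover only its own peaks, so a difference in reads here includes that in covered length.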

How the data were processed

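The authors mapped reads with Bowtie2 to the MSU7 genome, removed reads of low mapping quality and duplicates with SAMtools, and called H2A.Z peaks per library against input with SICER at a false discovery rate of 0.05. The caller used for H3 is not given in the sources used here, but its tables have the same layout. The deposited tables list each peak with its ChIP read count, its input read count, a p-value, a fold and a q-value, as the authors' caller wrote them. The counts are not normalised, and the fold is a ratio of counts divided by a constant per library.

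From these, peaks that overlapped or touched were merged over 4 libraries. Covered length, reads per 1000000 reads in all peaks of the library (RPM), RPM per covered kb and fold over input (pseudocount 0.5 on reads) were computed per region and library. Log2 differences are the mean of oschz1 minus that of NIP. H3 regions were tested with edgeR 4.0.16 in R 4.3.3, with reads in peaks as library size, no scaling factors and Benjamini-Hochberg adjustment, after a check on simulated data. The study describes its ChIP-seq replicates as biological, and p-values measure the spread between these libraries. H2A.Z differences were not tested, since they chose the regions.

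Alternatives were stricter peaks (false discovery rate 1e-10, or fold 2 and above), peaks under 600 bp apart joined, margins of 200 and 800 bp, other definitions of gained bases, library sizes recovered from the input reads, TMM factors, DESeq2 1.42.0, other sets of H3 regions, the replicate number as a block, and leaving out each library. H3 cover by kind of base was not among the planned results, and its alternatives were added after seeing the data. Named regions are the 10 with the largest margin and the 3 with the largest margin in each class of growth. The members and lists were chosen with earlier results of these data known.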

Additional observations from a re-analysis of the deposited data

How the results depend on the processing

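The number of extended regions stayed within 1.5 times of 1659 with a false discovery rate of 1e-10 and with joined peaks. It was 486 with a fold of at least 2, 4308 with a margin of 200 bp and 474 with a margin of 800 bp. Leaving out a library asks less of a region and gave 3184 to 3933. Extended regions outnumbered shortened ones in all these settings. If a gained base only had to be missing from either NIP library, 54.5% of regions grew at 1 edge and 18.3% at both. With at least 400 bp per class, both edges grew in 0.964% and a gap was filled in 21.8%. With recovered library sizes the median log2 difference in H2A.Z was 0.305 in reads and -0.254 in density, shifts larger than the SD between the replicates' medians, while length and fold did not move. Over comparisons that each left out a library, the medians of reads, length, density and fold ranged from 0.337 to 0.357, from 0.582 to 0.585, from -0.215 to -0.189 and from -0.135 to -0.118.

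The difference in H3 covered length was -0.0099 Mb with a false discovery rate of 1e-10 and 0.0054 Mb, of opposite sign, with a fold of at least 2, and it ranged from -0.194 to -0.0523 Mb when a library was left out. The difference in H3 cover was -3.45 percentage points in gaps and -1.41 at edges with the false discovery rate of 1e-10, and -0.166 and -0.077 with a fold of at least 2. With a library left out it ranged from -6.78 to -4.87 in gaps and from -3.31 to -1.69 at edges. Fewer H3 peaks enter the stricter settings, and the cause was otherwise not tested.

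In the edgeR test of H3 regions at extended regions, 0 were called with TMM factors, recovered library sizes, at least 50 reads, a peak in at least 2 libraries, and each library left out. DESeq2 called 3 higher and 4 lower, against 98 (0.389%) and 76 (0.302%) of all 25169 H3 regions. Where the 4 libraries shared at least 80% of the H3 region (166 at extended regions), edgeR called 4 higher and 1 lower, against 61 (0.737%) and 3 (0.0362%) of all 8278. Those higher began at 26075001 on chromosome 1, 30371801 on chromosome 2, 2906601 on chromosome 8 and 4811801 on chromosome 11. The lower one began at 738601 on chromosome 12. With the replicate block 0 were called, and 37 were higher and 15 lower at an unadjusted p under 0.05. Same-numbered H3 libraries of the genotypes deviated from their group means with a correlation of -0.001133 across regions, so these counts showed no shared deviation by number. This cannot show whether the samples were prepared in pairs.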
